A study of Drosophila melanogaster with 4 samples.

Results

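Receptors for neuropeptides and peptide hormones were examined in single nuclei of the Drosophila melanogaster brain. The set holds 42 of the 17772 genes in the count matrices and was taken by identifier: the receptors of the fly's neuropeptides, the insulin receptor InR and the leucine-rich repeat receptors of the glycoprotein hormone family. The rule uses no measured value. All 42 identifiers were matched to RefSeq (Release 6 plus ISO1 MT), with 9 on the X chromosome, 10 on 3L, 13 on 3R, 7 on 2R and 3 on 2L. By the role of their best known ligand they fall into feeding and energy (12 genes), diuresis and stress (8), clock, sleep and mating (6), myoactive peptides (7), moulting and glycoprotein hormones (5), and 4 genes (CG13229, CG33639, CG43795, CG32547) for which no ligand is given here. The gene models of 15 receptors overlap another annotated gene, so the source of some of their reads is uncertain.

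Flies of the laboratory strain Canton S (B), which carries w1118, were 3 to 5 days old when exposure began. They then spent 6 days on food with 250 µM sodium arsenite (NaAsO2) or on food without it. Each sex and treatment gave 1 library of single nuclei from 10 pooled brains. The study asked how chronic arsenic exposure alters gene expression in the cells of the brain of each sex. With 1 library per group, differences between groups have no replicate check, and differences between treatments, sexes or pools of flies cannot be told apart from differences between libraries. No test between groups was therefore made, and every interval given is an exact 95% interval that covers counting error only.

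Most peptide receptors are G protein-coupled receptors in the membrane of neurons, glia and peripheral cells. A peptide released from a distant neurosecretory cell acts on any cell that carries its receptor, so the cells that express a receptor define where the peptide can act. InR is different in kind: it is a receptor tyrosine kinase that binds insulin-like peptides and signals through chico, Akt and the transcription factor foxo.

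The libraries held 10000 to 25332 nuclei and 33235404 to 53360256 unique molecular identifiers (UMIs, counted transcripts), with medians of 1374 to 2665.5 UMIs per nucleus. The male NaAsO2 library stood apart: its lowest nucleus had 1766 UMIs against 500 in each of the others, and 1 cluster (number 22, led by Uhg4, lncRNA:CR45035 and Gnmt) took 1053 of its 1060 nuclei from that library. Pairs of libraries shared 45 to 135 cell barcodes, at most 0.75% of the smaller library. Levels of the male dosage compensation RNA roX1 matched the labelled sex in all 4 libraries. Nuclei were grouped into 76 clusters without using the receptor or ligand genes, 61 neuronal, 11 glial and 4 other, and named by marker lists where these allowed it (42.4% of nuclei). A level is given in CPM, the UMIs of a gene divided by all UMIs of the same library or class of nuclei and scaled by the constant customary for CPM. Of the receptors that overlap another gene, CNMaR lies over fry, whose level was 183 to 204 CPM in the 4 libraries, CG13229 overlaps shn (155 to 183 CPM) and CG12391 (29.9 to 40.9 CPM), and Dh44-R2 overlaps fdl (62.5 to 70.9 CPM).

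The receptors were read at low but measurable levels. Together they took 642427 UMIs, 0.386% of all, which was 3783 CPM in the female control, 3701 CPM in the male control, 3890 CPM in the female NaAsO2 and 4116 CPM in the male NaAsO2 library. All 42 were detected in every library, and 41 had at least 200 UMIs over the 2 controls. SPR, the sex peptide receptor, which also binds the myoinhibitory peptides encoded by Mip, had the highest level (585 CPM in the female and 670 CPM in the male control), ahead of InR (434 and 387 CPM). CG43795, AstA-R1 and Pdfr followed in females with 357, 303 and 256 CPM, and with 446, 216 and 180 CPM in males. At the lower end were AstA-R2 (3.19 and 1.90 CPM), AkhR (2.51 and 3.58 CPM) and CapaR (1.86 and 1.35 CPM). In the female control the interval of AkhR overlapped those of AstA-R2 and CapaR, and in the male control AstA-R2 and CapaR overlapped while AkhR was above both. Per kilobase of annotated transcript SPR was again first (174 and 200 CPM per kb).

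At baseline each receptor was traced to the cluster in which its level was highest relative to the rest of the female control library, its leading cluster. Because the clusters were chosen there, that value is a description and the other libraries show how far the pattern recurred. A leading cluster was at least 3-fold above the rest for 38 receptors in the female control, and for 29 of these also in the male control. By CPM, and not relative to the rest, the same cluster was first in the male control for 27 receptors. Ranks in the male control given below are also by CPM. In all 4 libraries 24 receptors were at least 3-fold above the rest. The leading clusters were neuronal for 33 receptors and glial for 9. The remaining 4 receptors, PK2-R1, Lgr4, MsR1 and sNPF-R, led in the female control by 2.37- to 2.997-fold, and sNPF-R lay just under the limit. A leading cluster needed at least 10 UMIs of the receptor and 10 nuclei in the female control.

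**Figure D1:**
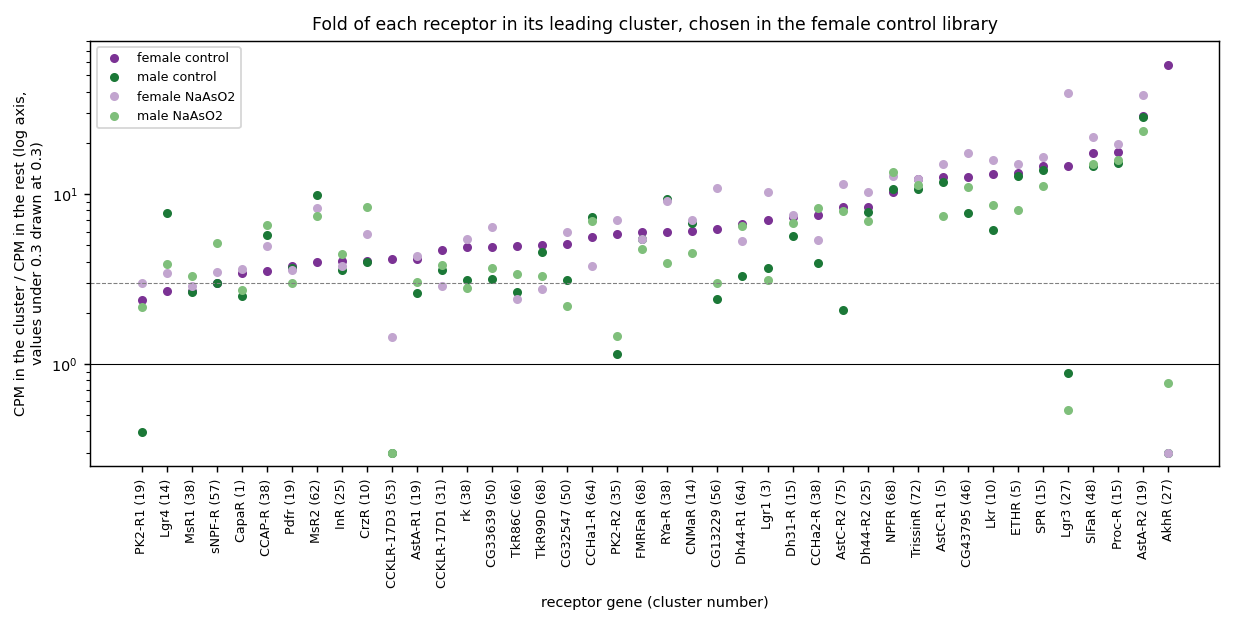
Level of each receptor in its leading cluster divided by its level in the rest of the library, on a log axis, for the 4 libraries; the cluster number is in brackets, the dashed line marks 3-fold and values under 0.3 are drawn at 0.3. AstA-R2, Proc-R, SIFaR and SPR are far above the dashed line in all 4 libraries, whereas Lgr3 in cluster 27 is above it only in the 2 female libraries, and AkhR in the same cluster only in the female control.

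Among the feeding and energy receptors, SIFaR, the receptor for SIFamide, was concentrated in Dm9 neuron-like nuclei, a glutamatergic interneuron of the medulla. Its level there was 547 CPM in the female control, 485 in the male control, 573 in the female NaAsO2 and 447 in the male NaAsO2 library, 14.7- to 21.8-fold above the rest of each library. A second site was Tm5c neuron-like nuclei, with 260 CPM in the female and 215 CPM in the male control. SIFaR (Dmel_CG10823, chromosome 3R, 21276664 to 21293998) had a UMI in 49 of 75 Dm9 neuron-like nuclei of the female control and in 58 of 97 of the male control, against 4.35% and 3.42% of glial nuclei. The glial and Dm9 neuron-like nuclei had median depths of 1763 and 2243 UMIs in the female and 1345 and 1792 UMIs in the male control. The ligand gene SIFa had 47.8 CPM in the female control, 40.9 in the male control, 10.3 in the female NaAsO2 and 11.7 in the male NaAsO2 library.

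The pair of allatostatin A receptors shared a leading cluster, although one was abundant and the other scarce. AstA-R2 (Dmel_CG10001, 3R, 28737109 to 28744782) had 62.3 CPM in L2 neuron-like nuclei of the female control. This cluster (number 19) is named from its marker list alone: its leading transmitter gene was VGlut, the glutamate transporter, whereas L2 lamina neurons are known as cholinergic. The male control had 44.7 CPM, the female NaAsO2 library 78.0 CPM and the male NaAsO2 library 73.1 CPM, with intervals that overlap one another. In the female control this 1 cluster held 32.9% of all AstA-R2 UMIs, and in the male control 17.5%. A UMI was seen in 46 of 398 L2 neuron-like nuclei of the female control and in 9 of 116 of the male control, against 0.29% and 0.21% of glial nuclei. AstA-R1, the abundant member, was also highest in L2 neuron-like nuclei of females (1195 CPM, 4.15-fold above the rest), while in the male control (561 CPM, 2.62-fold) that cluster ranked 5th.

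NPFR, the receptor for neuropeptide F, led in cluster 68 (ru, CG15478, RluA-1, a VGlut-led cluster), at 371, 443, 468 and 550 CPM in the female control, male control, female NaAsO2 and male NaAsO2 libraries. TkR99D, a tachykinin receptor, and FMRFaR, the receptor for FMRFamides, led in the same cluster, with 302 and 286 CPM in the female and 300 and 243 CPM in the male control. The short neuropeptide F receptor sNPF-R had its highest relative level in a glial cluster, number 57 of the subperineurial glia-like nuclei, the cells that seal the blood-brain barrier. Its level there was 343, 312, 389 and 543 CPM in the order given above. The cholecystokinin-like receptors CCKLR-17D1 and CCKLR-17D3 bind the sulfakinins of Dsk. CCKLR-17D1 led in Tm5c neuron-like nuclei at 102 CPM in the female and 66.3 CPM in the male control, and CCKLR-17D3 in cluster 53 (sim, asRNA:CR45621, Wnt10) on 11 UMIs in the female control and none in either male library.

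A group of receptors met in cluster 38, led by Orcokinin, CG8401 and ITP. Orcokinin and ITP encode secreted peptides. CCAP-R, CCHa2-R, RYa-R, MsR1 and rk all had this leading cluster. Their levels in the female control were 131, 72.4, 142, 225 and 253 CPM, and in the male control 172, 40.6, 223, 232 and 132 CPM, and for each of them cluster 38 was also first in the male control. CCHa1-R and Dh44-R1 met in cluster 64 (CG7191, CG13408, RunxB), with 119 and 274 CPM in the female and 167 and 133 CPM in the male control.

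AkhR (Dmel_CG11325, 2L, 6711286 to 6716186), the receptor for adipokinetic hormone, is known from the fat body, where it mobilises stored lipid and sugar. In fat body-like nuclei (cluster 21, led by TotA, TotC and CG2233) AkhR had 24.998 CPM in the female control and 68.6 CPM in the male control, 13.5- and 81.1-fold above the rest. These nuclei held 28.4% of AkhR UMIs in the female and 77.3% in the male control. A UMI was seen in 13 of 428 fat body-like nuclei in the female control, 32 of 254 in the male control, 17 of 222 in the female NaAsO2 and 26 of 179 in the male NaAsO2 library. The higher fold of AkhR in cluster 27 of the female control (57.4-fold) rested on 39 UMIs in 2 nuclei, and the other 3 libraries together held 1 UMI there.

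Among the diuresis and stress receptors, Dh31-R, Dh44-R2, Lkr and CrzR had a glial leading cluster, 4 of the 8. Dh31-R, a calcitonin-like receptor, had 664, 555, 688 and 730 CPM in cortex glia-like nuclei, which wrap neuronal cell bodies, and 600, 889, 661 and 1008 CPM in cluster 57 of the subperineurial glia-like nuclei, in the order female control, male control, female NaAsO2, male NaAsO2. Dh44-R2, a receptor for diuretic hormone 44, had 381, 367, 432 and 433 CPM in cortex glia-like nuclei. It was also high in perineurial glia-like nuclei, the outermost glial layer, at 262, 250, 331 and 196 CPM. Its partner Dh44-R1 was neuronal, with 87.1% of its UMIs in neuronal clusters of the female control against 48.7% for Dh44-R2.

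Lkr, the leucokinin receptor, and CrzR, the corazonin receptor, both led in perineurial glia-like nuclei. Lkr had 250 CPM (224 to 278) there in the female control but 113 CPM (92.7 to 135) in the male control, and 325 and 132 CPM in the female and male NaAsO2 libraries. Both female libraries were above both male libraries, and the intervals of the sexes did not overlap. CrzR had 71.5, 58.3, 106 and 144 CPM in these nuclei in the same order. PK2-R1 and PK2-R2, receptors for the pyrokinins of Hug, and CapaR, the receptor for the capability peptides, had no cluster at least 3-fold above the rest in both controls. PK2-R2 had 64.3 CPM in its leading cluster 35 (DIP-theta, tey, DCX-EMAP) in the female control, but 14.2 CPM on 1 UMI in the male control. PK2-R1 led in L2 neuron-like nuclei at 22.2 CPM in the female control, with 4.06 CPM on 1 UMI in the male control, and CapaR in cluster 1 (pros, dati, bab1) at 5.28 and 3.03 CPM.

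Among the clock, sleep and mating receptors, AstC-R1, a receptor for allatostatin C, led in T1 neuron-like nuclei, a cell type of the lamina and medulla. They had 1013 and 884 CPM in the female and male control, 12.5- and 11.8-fold above the rest, and held 39.2% and 52.6% of its UMIs. In the male control they ranked 2nd by CPM, after the small cluster 73 (887 CPM), which was 6.20-fold above the rest. Cluster 73 was called glial, but its top leading genes (Eaat1, witty, CG15522) were also those of the T1 neuron-like cluster. Whether its nuclei are mixed was not tested, and it is not read as a glial site of AstC-R1. In T1 neuron-like nuclei the level was 1228 CPM in the female NaAsO2 and 581 CPM in the male NaAsO2 library. Dm9 neuron-like nuclei were also high, at 882 and 797 CPM in the female and male control. AstC-R2, the partner receptor, led in the small cluster 75 (haf, CG44153, trn), at 1030 CPM in the female control on 26 UMIs and 230 CPM in the male control on 1 UMI. ETHR, the receptor for ecdysis triggering hormone, shared the T1 neuron-like cluster with 65.1, 71.6, 85.7 and 43.9 CPM, and 40.8% and 54.4% of its UMIs in the female and male control. For AstC-R1 and ETHR the female NaAsO2 value was the highest of the 4 and the male NaAsO2 value the lowest. ETHR had a UMI in 15.5% of T1 neuron-like nuclei of the female control and 14.1% of the male control, against 0.74% and 0.63% of glial nuclei.

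Pdfr, the receptor for the clock peptide PDF, was 3.77-fold above the rest in L2 neuron-like nuclei of the female control (920 CPM) and 3.67-fold in the male control (646 CPM). In cluster 76 (trol, ssp6, Nep1), which held 8 nuclei of the female control and so fell under the minimum of 10, Pdfr was 8.996-fold above the rest in the female and 9.55-fold in the male control, with 2289, 1704, 3065 and 3757 CPM in the 4 libraries. CNMaR led in Tm4 neuron-like nuclei, transmedullary neurons, at 596, 779, 685 and 471 CPM. TrissinR led in cluster 72 (DIP-alpha, CG30116, Rgk3) at 1154, 1251, 1233 and 1222 CPM, with intervals that overlap one another.

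SPR (X, 5446656 to 5494012) led in cortex glia-like nuclei. By CPM these ranked 2nd in the male control after the unnamed glial cluster 25 (lncRNA:CR34335, lncRNA:CR40469, CG40470). Relative to the rest they were above cluster 25 there, at 13.8-fold against 12.4-fold. Cluster 25 had 3889, 6351, 5373 and 7304 CPM in the female control, male control, female NaAsO2 and male NaAsO2 libraries. Cortex glia-like nuclei had 6376 CPM in the female control, 6272 in the male control, 7315 in the female NaAsO2 and 5851 in the male NaAsO2 library, 11.2- to 16.6-fold above the rest. They held 27.4% of SPR UMIs in the female and 34.6% in the male control. Ensheathing glia-like nuclei, with 672 and 609 CPM in the controls, were near the library level. Among the named neuron classes, SPR was highest in Dm9 neuron-like nuclei, at 2579 CPM in the female and 1645 CPM in the male control.

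Of the myoactive peptide receptors, Proc-R, the proctolin receptor (X, 4707916 to 4729487), was low in neurons. Glial clusters held 81.2% of its UMIs in the female and 85.0% in the male control. Its level was 577 CPM in cortex glia-like nuclei of the female control and 567 CPM of the male control, and 381 and 311 CPM in ensheathing glia-like nuclei, which surround the neuropil. Over all neuronal nuclei it was 9.19 and 9.86 CPM. MsR2, a myosuppressin receptor, led in cluster 62 (mthl15, CG10175, CG15478) with 136 CPM in the female and 389 CPM in the male control. TkR86C, the other tachykinin receptor, had 38.8 CPM in the female control, 36.1 in the male control, 40.9 in the female NaAsO2 and 32.9 in the male NaAsO2 library.

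Among the moulting and glycoprotein hormone receptors, Lgr3 and Lgr1 had cluster levels that differed between the female and the male libraries. Lgr3, a relaxin-family receptor for Ilp8 (3R, 25665809 to 25677214), had 67.5 CPM in Kenyon cell-like nuclei, the intrinsic neurons of the mushroom body, in the female control and 69.7 CPM in the male control, where they held 36.9% and 37.2% of its UMIs. Its highest fold in the female control was in cluster 27, led by fru, Ptx1 and Gyc32E, where fru is the sex-determination transcription factor of courtship neurons. There Lgr3 had 137 CPM (103 to 180) in the female control and 359 CPM (298 to 429) in the female NaAsO2 library. The male control had 7.31 CPM (1.51 to 21.4) and the male NaAsO2 library 4.25 CPM (0.51 to 15.4). Both female libraries were thus above both male libraries with no overlap of the intervals.

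A UMI of Lgr3 was seen in 20 of 147 nuclei of cluster 27 in the female control and 26 of 189 in the female NaAsO2 library, against 2 of 199 and 1 of 156 in the male control and male NaAsO2 libraries. In glial nuclei, which served as the background, the shares were 0.97%, 0.65%, 0.9995% and 1.79% in the order female control, female NaAsO2, male control, male NaAsO2, so that the male shares of 1.01% and 0.64% were at background. The median depths in cluster 27 were 2192, 1496, 1871 and 2574.5 UMIs and in glial nuclei 1763, 1241, 1345 and 2827 UMIs, in that order. The ligand gene Ilp8 had 0 to 2 UMIs in each library. Lgr3 overlaps lncRNA:CR45225 and CG4730, which had at most 0.353 and 2.05 CPM in any library.

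Lgr1, a receptor for the Gpa2 and Gpb5 hormone, had 85.6 CPM in Kenyon cell-like nuclei of the female control and 34.8 CPM of the male control, with 117 and 31.3 CPM in the female and male NaAsO2 libraries. The 2 female values were above the 2 male values and their intervals did not overlap. In monoaminergic neuron-like nuclei Lgr1 had 65.2 and 61.3 CPM in the female and male control, whose intervals overlap. The bursicon receptor rk was highest in cluster 38, given above, and Lgr4, a relaxin-family receptor, in Tm4 neuron-like nuclei, at 44.3 CPM in the female and 86.0 CPM in the male control.

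The receptors with no ligand given included CG43795, which had 4325 CPM in chiasm glia-like nuclei of the female control and 3395 CPM of the male control. In T1 neuron-like nuclei it had 2075 and 2181 CPM, 28.4% and 41.95% of its UMIs. CG33639 and CG32547 both led in the unnamed cluster 50 (tim, CG8641, eya), at 973 and 498 CPM in the female and 503 and 203 CPM in the male control. The Lawf2 neuron-like cluster 43 shares its leading genes tim, eya and CngA, so tim does not mark cluster 50 as clock neurons. In cluster 43 CG33639 had 814 and 614 CPM in the female and male control. CG13229 led in cluster 56 (Grd, lncRNA:CR45223, CARPA) with 411 and 128 CPM.

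**Figure D2:**
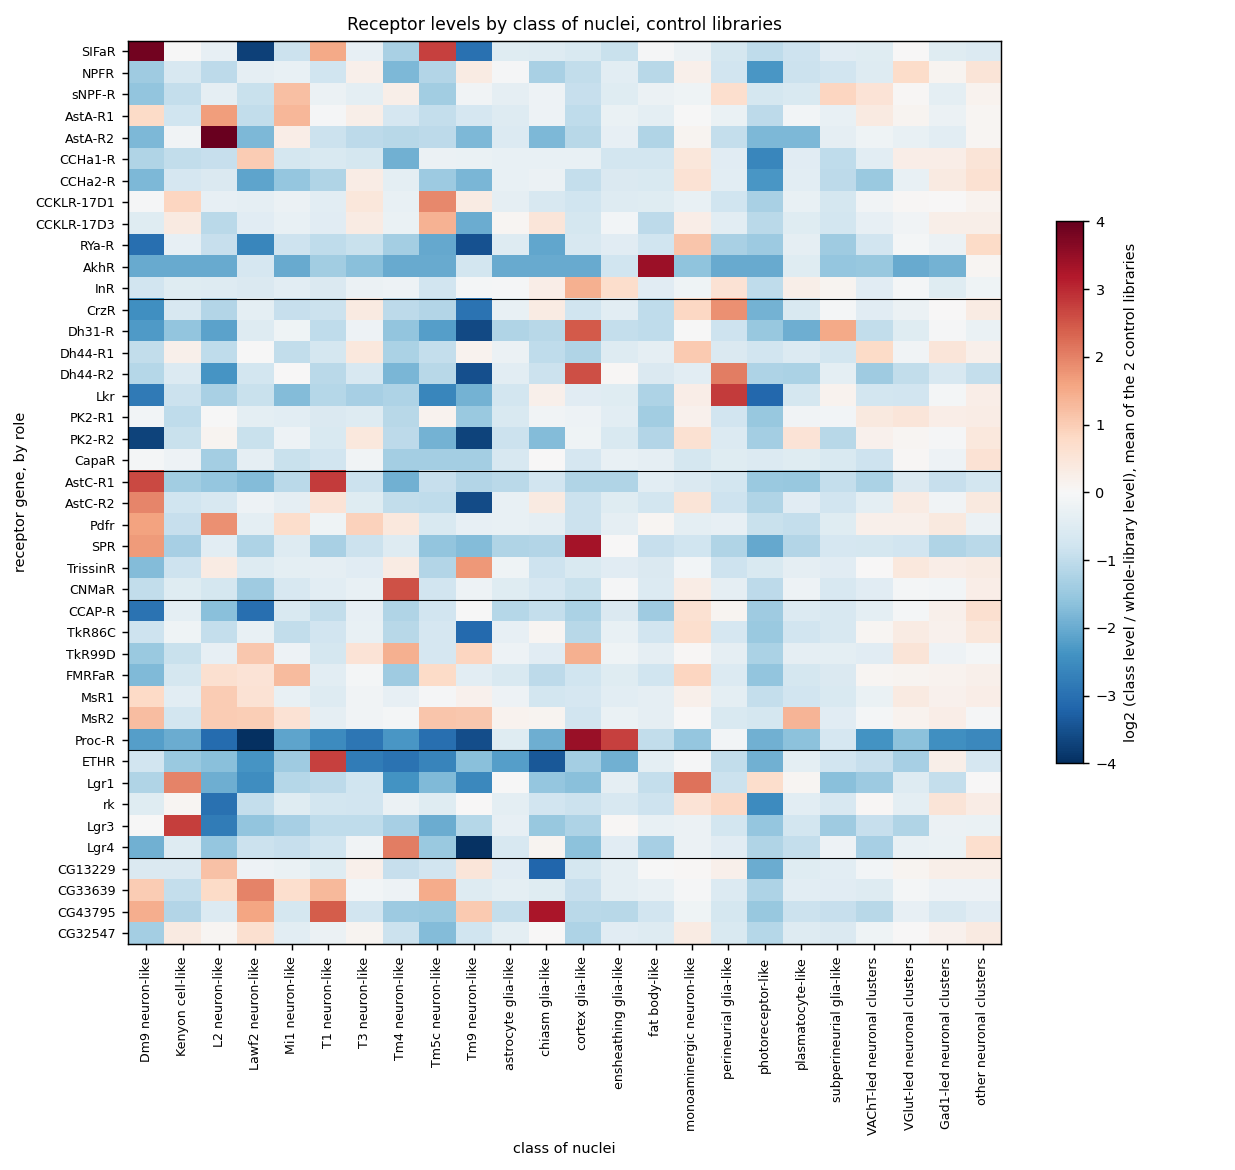
Level of the 42 receptors (rows, by role and separated by lines) in 24 classes of nuclei (columns) relative to the whole library, as log2 of CPM plus 1 averaged over the 2 control libraries, with the colour scale ending at -4 and 4. SIFaR in Dm9 neuron-like, AstA-R2 in L2 neuron-like, AkhR in fat body-like, and SPR and Proc-R in cortex glia-like nuclei are the darkest red cells.

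Neuronal clusters held 76.5% (76.3 to 76.6) of receptor UMIs in the female control and 67.5% (67.2 to 67.7) in the male control, against 80.7% and 74.5% of all UMIs. The rest lay mainly in glia, 20.5% and 28.8%. Neuronal transcripts were also counted in glial clusters. The level there of 6 neuron markers (elav, nSyb, Syt1, brp, para, cac) was 0.568 to 0.722 of that in neuronal clusters in the female and 0.563 to 0.802 in the male control. A cluster was called glial where at least 2 of the glial markers repo, loco and nrv2 were at least 2-fold higher. The contrast of these markers therefore follows from that rule. In neuronal clusters they were at 0.0574 to 0.180 of the glial level in the female and 0.0510 to 0.158 in the male control. For 28 receptors the ratio of glial to neuronal level, over all clusters of each kind, was at or below that of the highest neuron marker in both controls. That marker was elav in both, and the next, nSyb, was at 0.668 in the female and 0.633 in the male control. In the male control AstA-R1 (0.684), Pdfr (0.730), CG13229 (0.750) and MsR2 (0.758), among others, lay between nSyb and elav. No glial expression is read from the glial UMIs of the 28, although single glial classes can differ from the pool. The source of these UMIs was not tested. In the NaAsO2 libraries the marker ratios were 0.516 to 0.679 in females and 0.674 to 0.816 in males, and each of the 6 was lower than the control in females and higher in males.

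For 6 receptors the glial level exceeded the neuronal level in both controls with an interval above 1. Proc-R had ratios of 26.6 in the female and 24.9 in the male control, Dh44-R2 of 5.25 and 5.80, SPR of 4.59 and 8.52, Dh31-R of 2.91 and 3.53, Lkr of 2.99 and 1.55, and InR of 2.22 and 2.36. In the NaAsO2 libraries the same 6 stayed above 1, with ratios of 2.14 to 26.2 in females and 1.73 to 34.7 in males, and sNPF-R and CrzR joined them in both. Of these 6, Dh31-R, Dh44-R2 and Lkr belong to the diuresis and stress group.

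**Figure D3:**
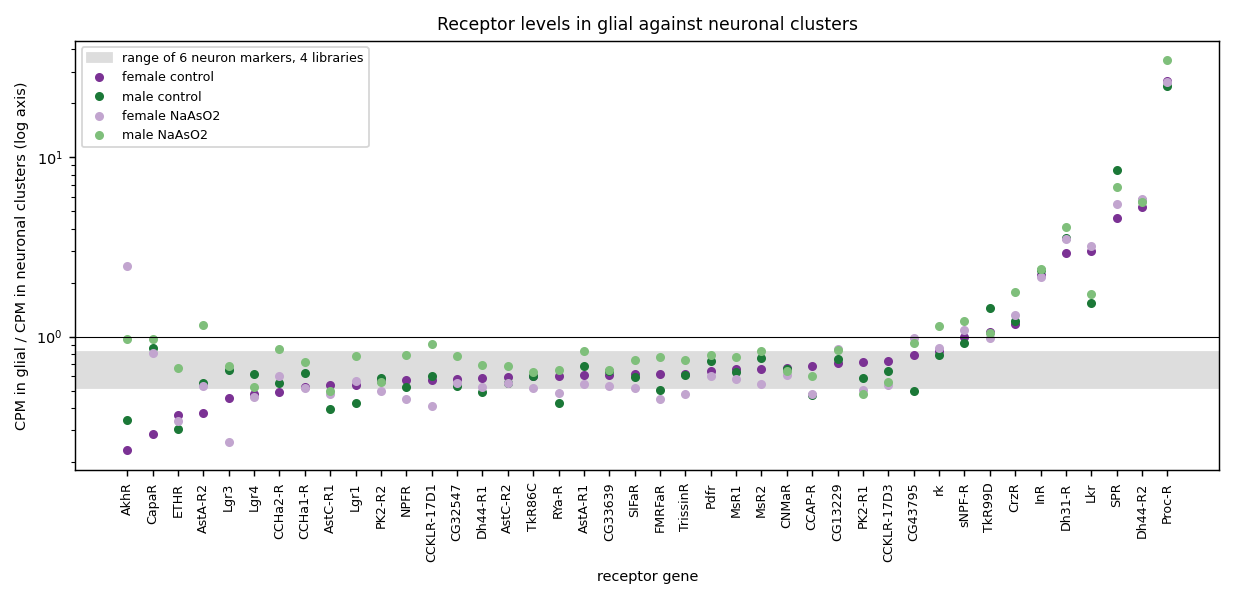
CPM of each receptor over all glial clusters divided by CPM over all neuronal clusters, on a log axis, in the 4 libraries, with the grey band for the range of 6 neuron markers. Most receptors lie in or near the band, and Proc-R, Dh44-R2, SPR, Lkr, Dh31-R and InR lie above 1 in all 4 libraries.

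In females, receptor levels in the NaAsO2 library were close to those of the control. Log2 ratios of CPM are given relative to the median gene, which was at 0.08 in females and at -0.22 in males over the genes with at least 100 UMIs. None of the 42 receptors was past 0.5 in either direction, where 6.25% of 8930 genes were, 4.94% higher and 1.31% lower. None was past 1 either, where 1.97% of genes were, 1.66% higher and 0.314% lower. The receptors had a median of -0.04, with 12 above and 30 below the median gene. They ranged from -0.49 (interval -0.59 to -0.40) for Proc-R, just inside the limit, to 0.36 (0.33 to 0.38) for InR. PK2-R1 was at -0.47 (-0.67 to -0.27). The receptor nearest to 0 was TkR86C, at -0.0055 (-0.10 to 0.09).

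In males, 9 of the 42 receptors were past 0.5 on the higher side, where 10.8% of 8583 genes were, and 1 on the lower side, where 15.7% of genes were. The share of receptors past 0.5 in either direction, 23.8%, was near the background of 26.5%. The receptors had a median of 0.26, with 34 above and 8 below the median gene, and without setting them relative to the median gene the median was 0.04 and 6 were past 0.5 higher and 3 lower. Past 1 on the higher side were InR, Lgr4 and AstA-R2, 3 of 42, where 1.28% of genes were, and none was past 1 lower, where 3.93% were (5.21% in either direction). CrzR (0.497) and CCKLR-17D3 (0.498) were just under the limit and rk (0.503) just past it, and Dh44-R2 was nearest to 0 at 0.02. In neuronal clusters CCKLR-17D3 had 23.4 and 22.9 CPM in the male control and NaAsO2 libraries, and in glial clusters 14.97 and 12.72 CPM. In clusters of neither kind it had 9.25 and 44.6 CPM, on 18 and 273 UMIs. These include cluster 22, which made up 10.5% of the nuclei of the male NaAsO2 library. Cluster 22 enters the male ratios over whole libraries, and its part in the CCKLR-17D3 ratio was not tested.

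Gene length and chromosome moved with these ratios. Of the 42 receptors, 39 are among the longest genes tested (gene spans above 5.47 kb in the male comparison), whose median in males was 0.20 against 0.26 for those 39 receptors. In females the longest genes had -0.07 and the receptors among them -0.04. Genes on the X had a median of 0.09 in males and the 9 X-linked receptors 0.48, with 0.20 for the 33 autosomal receptors. The part of length or chromosome in any single ratio was not tested.

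**Figure D4:**
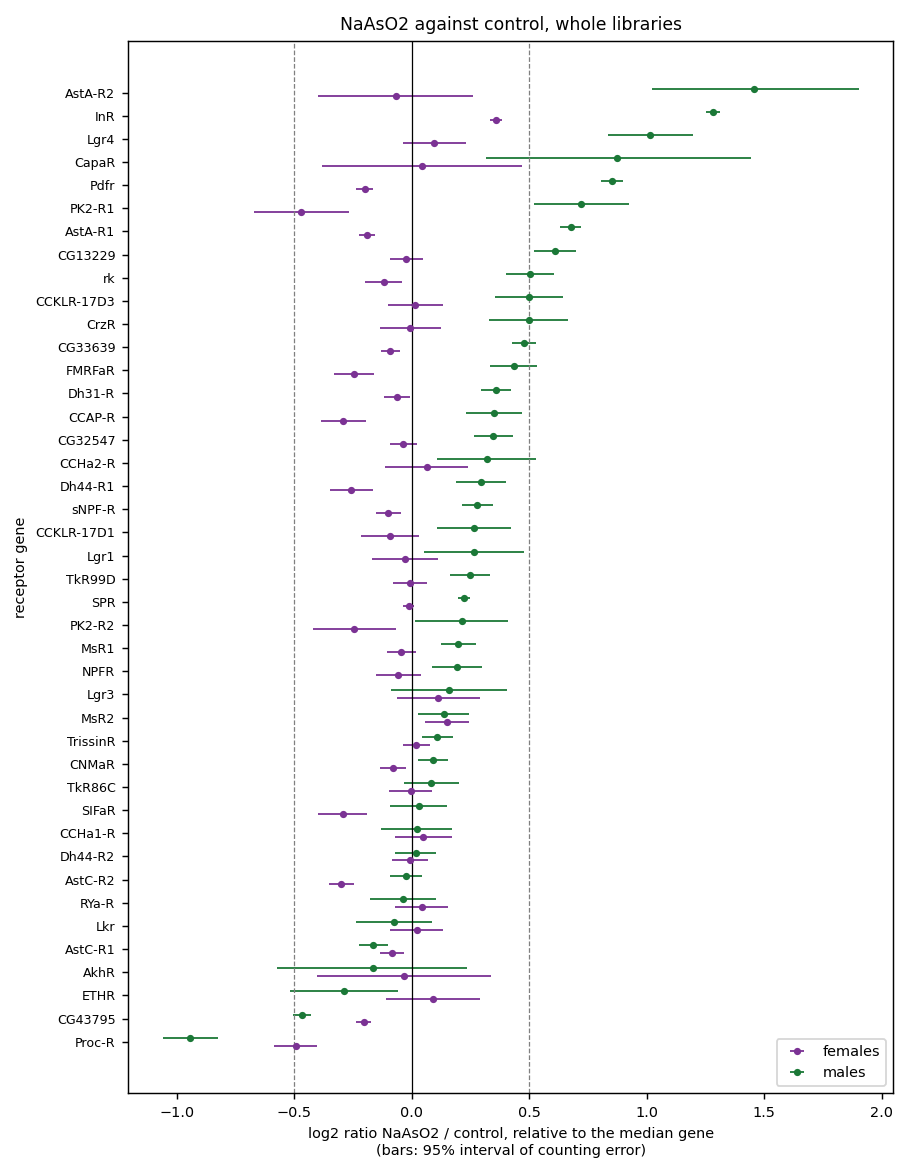
Log2 ratio of NaAsO2 over control for each receptor in females and males, relative to the median gene, with 95% intervals of counting error, ordered by the male value; dashed lines mark 0.5 in both directions. Female values lie between the dashed lines, and in males AstA-R2, InR and Lgr4 lie to the right of 1 and Proc-R near -0.94.

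InR was higher in the NaAsO2 library of each sex. Its level was 434 CPM (429 to 440) in the female control and 590 (583 to 597) in the female NaAsO2 library, and 387 (381 to 394) and 809 (799 to 818) in the male libraries. Both NaAsO2 libraries were above both controls with no overlap of intervals, 1.36-fold in females and 2.09-fold in males. Relative to the median gene the male log2 ratio was 1.28 (1.25 to 1.31). InR (Dmel_CG18402, 3R, 21570248 to 21619321) overlaps lncRNA:Irar and lncRNA:CR44034, which had at most 7.49 and 1.37 CPM in any library.

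Within classes, with each ratio relative to the median gene of that class, InR was higher in all 24 classes tested in females, with a median of 0.53, and in all 23 tested in males, with a median of 1.34. In females it was past 0.5 in 14 classes and past 1 in 2, Tm5c neuron-like (1.17) and Dm9 neuron-like (1.11). In males it was past 1 in 21 classes, and the 23 classes tested ranged from 0.29 in chiasm glia-like to 1.86 in fat body-like nuclei. Tm9 neuron-like nuclei had 23 and 18 UMIs in the male control and male NaAsO2 libraries, too few for a ratio, and there the NaAsO2 value was the lower one, 389 CPM (231 to 615) against 480 CPM (305 to 721). Its leading cluster was the unnamed glial cluster 25, with 1673 and 2153 CPM in the female control and NaAsO2 libraries and 1292 and 3394 CPM in the male ones. Among the named classes cortex glia-like nuclei were highest in the female control, with 1174 CPM in the female control and 1683 in the female NaAsO2 library, and 1030 and 2607 CPM in the male libraries. Ensheathing glia-like nuclei had 730 and 1043 CPM in females and 617 and 1186 CPM in males, and all neuronal nuclei 362 and 506 CPM in females and 304 and 676 CPM in males.

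**Figure D5:**
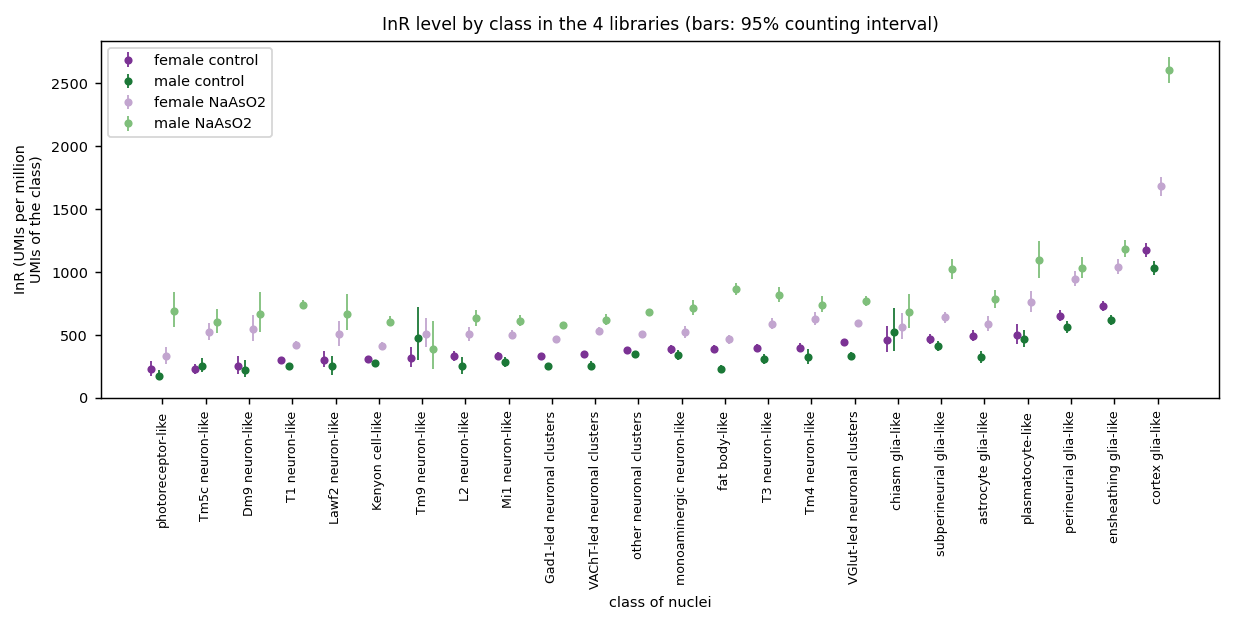
InR in CPM of each class of nuclei with 95% counting intervals in the 4 libraries, ordered by the female control. In each class the female NaAsO2 value is above the female control, and the male NaAsO2 value is the highest of the 4 in each class but Tm9 neuron-like, with cortex glia-like nuclei at 2607 CPM.

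The genes on either side of InR were less uniform. Among the insulin-like ligands, Ilp2, made in the insulin-producing cells, had 228 and 230 CPM in the female control and NaAsO2 library and 326 and 105 CPM in the male libraries. Ilp5 had 45.2 and 40.7 CPM in females and 45.5 and 1.87 CPM in males, and Ilp3 15.2 and 28.7 CPM in females and 4.81 and 7.26 CPM in males. Of 10 genes that act downstream of InR, 1 was past 0.5 in females and 2 in males, all on the higher side, where 4.94% and 10.8% of all genes were, so the counts are too small to set apart from that background. Thor, the translational repressor 4E-BP and a foxo target, was at 0.64 in females and 0.62 in males, and S6k, the ribosomal protein kinase, at 0.60 in males. The medians of the 10 were 0.00077 in females and 0.38 in males.

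Pdfr and AstA-R1 were higher in the male NaAsO2 library and slightly lower in the female one. Pdfr had 256, 180, 236 and 279 CPM in the female control, male control, female NaAsO2 and male NaAsO2 libraries, a log2 ratio of -0.20 in females and 0.85 (0.80 to 0.90) in males. AstA-R1 had 303, 216, 281 and 297 CPM, at -0.19 in females and 0.68 (0.63 to 0.72) in males. For Pdfr and AstA-R1 the male control was the lowest of the 4 libraries, with no overlap of intervals. Within classes, Pdfr was higher in 21 of 21 classes in males, with a median of 0.65, and AstA-R1 in 21 of 22, with a median of 0.66. These classes include glial ones, and both are among the 28 receptors from whose glial UMIs no glial expression is read. The marker ratios in glia were also higher in the male NaAsO2 library, and their part in these counts was not tested. Over all neuronal nuclei of males Pdfr went from 191 to 274 CPM and AstA-R1 from 234 to 325 CPM. In L2 neuron-like nuclei, AstA-R1 was at 0.64 (0.37 to 0.92) and Pdfr at 0.32 (0.06 to 0.58) in males. The clock peptide Pdf went from 477 to 136 CPM in females and from 520 to 52.2 CPM in males, and AstA from 138 to 121 and from 210 to 96.9 CPM.

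AstA-R2 had 1.90 CPM in the male control and 4.46 CPM in the male NaAsO2 library, a log2 ratio of 1.45 (1.02 to 1.90), with 3.19 and 3.22 CPM in the female libraries. In L2 neuron-like nuclei alone the male ratio was 0.71 with an interval of -0.25 to 1.81, so a difference within that class was not detectable at this depth. The share of L2 neuron-like nuclei moved with this result: they were 0.779% of nuclei in the male control, 2.01% in the male NaAsO2, 2.07% in the female control and 1.65% in the female NaAsO2 library. Its part in the AstA-R2 ratio was not tested.

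Lgr4 (Dmel_CG34411, X, 13161714 to 13189164) had 17.1 and 19.4 CPM in the female control and NaAsO2 libraries, and 11.9 and 20.7 CPM in the male ones, a male log2 ratio of 1.01 (0.84 to 1.20). The male control was below the other 3 with no overlap of intervals. In Tm4 neuron-like nuclei, its leading class, the male ratio was -0.12 (-0.80 to 0.57), while the share of these nuclei was 0.792% in the male control and 2.04% in the male NaAsO2 library. In fat body-like nuclei Lgr4 had 2 UMIs in the male control and 97 in the male NaAsO2 library, 1.49 and 58.6 CPM, a log2 ratio of 5.26 with an interval of 3.37 to 8.33. These UMIs lay in 2 of 254 and 17 of 179 nuclei, whose median depths were 1682 and 3768 UMIs, and 2 nuclei held 40 of the 97. The share in glial nuclei was 1.21% and 3.29%. In the female control and NaAsO2 libraries the fat body-like level was 13.8 and 7.88 CPM.

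PK2-R1 (3R, 13338330 to 13345106) was lower in the female and higher in the male NaAsO2 library, with 9.60 and 7.34 CPM in the female control and NaAsO2 libraries and 10.2 and 14.4 CPM in the male ones. The intervals did not overlap within either sex. The log2 ratio was -0.47 in females and 0.72 (0.52 to 0.92) in males. Its ligand gene Hug had 168 and 161 CPM in females and 302 and 54.8 CPM in males. CapaR was at 0.87 in males, with 1.35 and 2.13 CPM, and its interval was 0.32 to 1.44. The ligand gene Capa had 97.1 and 89.0 CPM in females and 585 and 32.3 CPM in males.

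The other 2 receptors on the higher side in males were rk and CG13229. rk had 54.3 and 53.0 CPM in the female and 43.5 and 52.9 CPM in the male libraries, at -0.12 in females and 0.50 (0.40 to 0.60) in males. It was higher in 15 of 16 classes in males and past 1 in T3 neuron-like (17.9 to 67.5 CPM), astrocyte glia-like (28.3 to 70.7), ensheathing glia-like (28.4 to 59.3) and cortex glia-like nuclei (17.9 to 36.4). The ratio of glial to neuronal level of rk was 0.833 in the female and 0.785 in the male control, where the highest neuron marker was at 0.722 and 0.802. The marker ratios in glia were higher in the male NaAsO2 library, and their part in the glial values of rk was not tested. CG13229 had 67.5 and 70.4 CPM in females and 53.7 and 70.5 CPM in males, at 0.61 (0.52 to 0.70) in males. It was higher in 14 of 17 male classes.

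Proc-R had the lowest log2 ratio of the 42 receptors in both sexes. It had 46.1 CPM (44.3 to 47.9) in the female control and 34.7 (33.0 to 36.4) in the female NaAsO2 library, and 57.0 (54.5 to 59.6) and 25.5 (23.8 to 27.2) in the male libraries. Both NaAsO2 libraries were below both controls with no overlap, at log2 ratios of -0.49 and -0.94. In cortex glia-like nuclei the levels were 577 and 463 CPM in females and 567 and 286 CPM in males, at -0.31 (-0.47 to -0.15) and -0.94 (-1.15 to -0.74). In ensheathing glia-like nuclei the male ratio was -0.62 (-0.87 to -0.37) and the female ratio -0.13 (-0.31 to 0.05). None of the 10 female or 4 male classes read had a value above 0. Cortex glia-like nuclei were 1.99% and 1.59% of nuclei in the female control and NaAsO2 libraries and 3.93% and 2.42% in the male ones. The ligand gene Proc had 138 and 142 CPM in females and 112 and 60.4 CPM in males.

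Receptors and classes past 1 on the log2 scale numbered 16 of 555 in females (2.88%, 14 of 531 without InR), where 1.66% of all gene and class pairs were past it, and 51 of 477 in males (10.7%, 30 of 454 or 6.61% without InR), where 10.2% were. In females, on the higher side, SPR in Tm5c neuron-like nuclei went from 186 to 473 CPM, Dh31-R in L2 neuron-like nuclei from 17.8 to 52.4 CPM, CG13229 in perineurial glia-like nuclei from 83.0 to 168 CPM and CG33639 in Tm9 neuron-like nuclei from 124 to 249 CPM. On the lower side were CCAP-R in perineurial glia-like nuclei (47.6 to 18.4 CPM) and FMRFaR in cortex glia-like (29.9 to 13.0 CPM) and subperineurial glia-like nuclei (34.4 to 17.005 CPM). CCAP-R, FMRFaR and CG13229 are among the 28 receptors whose glial to neuronal ratio was at or below that of the highest neuron marker, elav, in both controls. No glial expression is therefore read from the values of CCAP-R and FMRFaR. In perineurial glia-like nuclei alone, CG13229 had intervals of 68.5 to 99.7 and 143 to 196 CPM in the female control and NaAsO2 libraries. Over all neuronal nuclei it had 71.5 and 73.1 CPM, and the source of its glial UMIs was not tested. The marker ratios in glia were lower in the female NaAsO2 library (para from 0.568 to 0.516, brp from 0.607 to 0.544), and their part in these values was not tested. Pdfr in Lawf2 neuron-like, SIFaR and rk in Mi1 neuron-like, AstA-R1 in Tm9 neuron-like and CG43795 in plasmatocyte-like nuclei were also lower, at -1.002 to -1.14.

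AkhR in fat body-like nuclei was 24.998 CPM in the female control and 71.7 CPM in the female NaAsO2 library, a log2 ratio of 1.505 (0.95 to 2.08), against 68.6 and 41.1 CPM and -0.77 (-1.25 to -0.31) in males. The largest single nucleus of the female NaAsO2 library held 27 of its 100 UMIs, and the top 2 held 46. The female control and male NaAsO2 values were below the other 2 with no overlap of intervals. In the neuronal clusters led by no transmitter gene, AkhR went from 85 to 5 UMIs in females, and 39 of the 85 were those of the 2 nuclei of cluster 27.

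In males, other pairs past 1 included glia of the blood-brain barrier and fat body-like nuclei. sNPF-R in subperineurial glia-like nuclei had 182 CPM (158 to 209) in the male control and 426 CPM (376 to 480) in the male NaAsO2 library, with 221 and 236 CPM in females. CrzR in perineurial glia-like nuclei had 58.3 and 144 CPM in males, and MsR2 in the same nuclei 23.1 and 47.4 CPM. CG13229 in subperineurial glia-like nuclei had 35.7 and 92.1 CPM. This class joins clusters 24 and 57, with 324 and 82 nuclei in the male control and 58 and 49 in the male NaAsO2 library. Cluster 57, where sNPF-R led, thus made up more of the class in the NaAsO2 library. The part of this shift in the ratios of sNPF-R and CG13229 was not tested, and the sNPF-R levels of cluster 57 alone are given above. In fat body-like nuclei CNMaR had 47.0 and 316 CPM, although 227 of its 523 UMIs in the NaAsO2 library came from 2 nuclei, and TkR99D 44.8 and 115.4 CPM. In females the NaAsO2 values of CNMaR and TkR99D were below the control, at 134 and 89.6 CPM for CNMaR and 54.6 and 35.8 CPM for TkR99D.

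Also in males, AstA-R1 was past 1 in T3 neuron-like (230 to 459 CPM), photoreceptor-like (128 to 288 CPM) and astrocyte glia-like nuclei (147 to 338 CPM). AstC-R1 and CG13229 in Tm4 neuron-like, FMRFaR in Tm5c neuron-like, Pdfr in plasmatocyte-like and CG32547 in cortex glia-like nuclei were higher at 1.10 to 1.67. Lgr4 and CG13229 in Gad1-led, Lkr in VGlut-led and PK2-R1 in the neuronal clusters led by no transmitter gene were higher at 1.11 to 1.34, and SIFaR in ensheathing glia-like nuclei at 1.03, on 23 and 32 UMIs. AstA-R1, SIFaR, CG32547, MsR2 and CG13229 are among the 28 receptors whose glial to neuronal ratio was at or below that of the highest neuron marker, elav, in both controls. The marker ratios in glia were also higher in the male NaAsO2 library (para from 0.563 to 0.674, brp from 0.617 to 0.705), and their part in the glial values of these receptors was not tested. Neuron markers were not read in plasmatocyte-like nuclei, where Pdfr had 37 and 45 UMIs. On the lower side were CG43795 in T1 neuron-like nuclei (2181 to 966 CPM), AstC-R2 in Dm9 neuron-like (542 to 250 CPM) and L2 neuron-like nuclei (110 to 53.3 CPM), RYa-R in Kenyon cell-like (28.0 to 9.98 CPM) and VGlut-led nuclei (31.02 to 10.02 CPM), and Proc-R in the neuronal clusters led by no transmitter gene (8.38 to 2.79 CPM).

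The receptors can be set beside the genes of their pathway by lists chosen by function. Of 38 peptide ligand genes, 31 had at least 100 UMIs in females, with 3 higher and 5 lower past 0.5 and a median of -0.12, where 4.94% of all genes were higher and 1.31% lower. In males 32 were read, with 2 higher and 21 lower and a median of -0.82, where 10.8% of all genes were higher and 15.7% lower. The receptor medians were -0.04 in females and 0.26 in males. Examples on the lower side in both sexes were Pdf, SIFa and Ms, which had 1115 and 427 CPM in females and 688 and 203 CPM in males. The number of peptide-secreting cells caught and the transcript per cell cannot be told apart in these sums. Of 9 genes for peptide processing, none was past 0.5 in females and 7B2, a prohormone convertase helper, was lower in males, with medians of -0.15 and 0.18. Of 22 genes of G protein transduction, none was past 0.5 in females, and 4 (Galphaq, cta, rut and dnc) were past 0.5 on the higher side in males, with medians of -0.06 and 0.21. In males 10.8% of all genes, and 14.9% of the longest genes, were past 0.5 on the higher side, and 15.7% of all genes were on the lower side, the side of 7B2.

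Between the sexes at baseline, 7 of 42 receptors were past 0.5 in favour of the female control, where 6.94% of 8835 genes were, and none in favour of the male control, where 10.3% were. In either direction the background was 17.2%. None was past 1, where 0.815% of genes were in favour of the female, 3.26% in favour of the male and 4.07% in either direction. The 7 were AstA-R2 (0.88), Lgr1 (0.75), CG32547 (0.74), Lgr4 (0.66), Pdfr (0.64), AstA-R1 (0.62) and CapaR (0.59). The receptor median was 0.20 relative to the median gene, which was at -0.14, with 31 receptors above and 11 below, and it was 0.0040 when each nucleus was thinned to 1000 UMIs. Dh31-R was nearest to 0, at 0.01. At the other end ETHR was at -0.39 (-0.60 to -0.19) and AkhR at -0.38 (-0.74 to -0.01).

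Chromosome moved with the sex comparison. The 9 X-linked receptors had a median of 0.47 and the 33 autosomal ones 0.07, against 0.14 for X-linked and -0.02 for autosomal genes, and 4 of the 7 receptors past 0.5 (AstA-R1, Pdfr, Lgr4, CG32547) are X-linked. The male control library entered both this comparison and that of NaAsO2 in males, and AstA-R1, AstA-R2, Pdfr, Lgr4 and CapaR, past 0.5 in both, were lowest in it of the 4 libraries. The male control also had the smallest share of L2 neuron-like and Tm4 neuron-like nuclei and the largest share of T1 neuron-like nuclei, 8.46% against 4.33% in the female control, 3.38% in the female NaAsO2 and 3.97% in the male NaAsO2 library. The part of these shares in the receptor ratios was not tested.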

How the data were processed

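Nuclei of 4 brain libraries were read from the deposited matrices. The authors aligned reads with Cell Ranger to release 6 of the Drosophila melanogaster genome, and the submitters' processing notes give version 3.1 and Seurat 3, while the matrix headers give 7.0.1. The deposited values are UMI counts for genes and nuclei, not normalized, and 0 columns were left unused. The annotation version and the use of intronic reads are not given in the sources used here.

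Python 3.11.15 was used, with numpy 2.4.6 and pandas 2.3.3 for sums and scipy 1.17.1 for intervals. Pearson residuals within each library (theta 100) of 3000 variable genes, without receptor and ligand genes, gave 30 principal components (scikit-learn 1.9.0) for Louvain clustering with 20 neighbours at resolution 1 (python-igraph 0.11.9). Part of the nuclei (37342) were clustered again on 40 components. The choice of 30 components over 10, which merged neuron types, was made after the clusters were seen, as were the naming thresholds: at least 3 of the 10 leading genes on a marker list, and 50% of the list at least 1.5-fold higher. Doublets were kept, and Scrublet scores (scanpy 1.11.5) served an alternative without them.

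Log2 ratios of CPM, for genes with at least 100 UMIs over the pair of libraries (50 within a class), were set relative to the median gene. Intervals are exact at 95% (Poisson, binomial or conditional binomial) and cover counting error only, since UMIs of 1 pool are not replicates. The ratio step was tested on simulated data. No p-value was computed. Every receptor was named at baseline, and those past 0.5 in a comparison of libraries, past 1 in a class, or nearest to 0 were described. The members and lists were chosen with earlier results of these data known. Plots used matplotlib 3.10.9.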

Additional observations from a re-analysis of the deposited data

Results flagged for a closer look

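In 4 receptors the log2 ratio of NaAsO2 over control, relative to the median gene, had counting intervals on opposite sides of 0 in the 2 sexes, with at least 1 sex past 0.5. With 1 library per sex and treatment the difference between the sexes was not tested. AstA-R1 was at -0.19 in females and 0.68 in males. Pdfr was at -0.20 in females and 0.85 in males. PK2-R1 was at -0.47 in females and 0.72 in males. For rk the values were -0.12 in females and 0.50 in males.

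Within classes, with at least 1 sex past 1, the same held for 7 receptor and class pairs, relative to the median gene of the class and again untested. CG43795 in T1 neuron-like nuclei was at 0.078 in females and -1.002 in males, and AstA-R1 in T3 neuron-like nuclei at -0.30 and 1.08. FMRFaR was at -1.19 and 0.83 in cortex glia-like nuclei and at -1.01 and 0.86 in subperineurial glia-like nuclei, in females and males. In fat body-like nuclei TkR99D was at -0.62 and 1.33, CNMaR at -0.59 and 2.71, and AkhR at 1.505 in females and -0.77 in males. The glial to neuronal ratio of FMRFaR was at or below that of the highest neuron marker in both controls, so no glial expression is read from its values. The ratios of the markers were also lower with NaAsO2 in females and higher in males, and their part in the FMRFaR values was not tested.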

How the results depend on the processing

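No paired analysis was possible because each sex and treatment has 1 library. The receptor median of NaAsO2 over control in females was -0.59 with mean UMIs per nucleus in place of CPM. In males it was 0.036 when not set relative to the median gene and 0.66 with mean UMIs per nucleus. For female over male control it was 0.066 when not set relative to the median gene, 0.38 with mean UMIs per nucleus and 0.0040 after thinning to 1000 UMIs. Receptors past 0.5 in females, 0 as reported, numbered 36 with mean UMIs per nucleus, 2 when nuclei were brought to 1 common total, and 1 each after thinning to 1000 UMIs, with genes of at least 20 UMIs, and in neuronal nuclei only. In males they numbered 30 with mean UMIs per nucleus and 3 past 1, and for female over male control 15 with mean UMIs per nucleus and 0 past 1. Mean UMIs per nucleus is not scaled for depth. Of the 17 log2 ratios of single receptors past 0.5, 8 left their counting interval when nuclei were brought to 1 common total. In nuclei of at least 1766 UMIs 6 left it, after thinning 5, without clusters mostly of 1 library 5, and in neuronal nuclei only 4. When not set relative to the median gene 11 left it, with mean UMIs per nucleus 12, and all 17 stayed inside without doublets.

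The share of receptor UMIs in neuronal clusters in the female and male control was 74.9% and 65.7% with receptor and ligand genes kept for clustering, 78.3% and 69.6% at resolution 2, 74.9% and 66.4% with 10 principal components, 77.1% and 71.6% in nuclei of at least 1766 UMIs, and 79.0% and 71.1% without doublets. Leading clusters of at least 3-fold numbered 24 with 10 principal components, where 9 clusters had no counterpart, 34 at resolution 2, 35 with the genes kept, 37 at the depth limit and 38 without doublets. The fold of CCHa1-R in its leading cluster was 0.154 with 10 principal components and 0.919 at resolution 2, that of PK2-R1 0.269 with 10 principal components, and that of AkhR 0.00 at resolution 2 and with the genes kept. The alternatives with 10 principal components, with neuronal nuclei only and without clusters mostly of 1 library, and resolution 2 for single receptors, were chosen after seeing the data. Without clusters mostly of 1 library the male median was 0.31 and 14 receptors were past 0.5.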
